A study of Mus musculus with 12 samples.

Results

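Alpha-defensins and the other products of Paneth cell granules were followed through the ileum of mice on 4 diets. Members were the rows whose gene name begins with Defa, 36 in number, together with Lyz1, Ang4, Mmp7, Itln1, Mptx1, Mptx2, Clps, Habp2, Pla2g2a and Pla2g4c, which made 46 of the 44205 genes of the table. The rule uses gene names alone. The mice were C57BL/6, were 16 weeks old at collection, and had been on their diet for 10 weeks from an age of 6 weeks. NF mice received a normal-fat diet and plain water, NF_Sugar mice the same diet and a 23% (w/v) sugar drink, HF mice a diet with 60% of its calories from fat and plain water, and HF_Sugar mice the high-fat diet with the sugar drink, with 3 mice and 3 libraries in each group. By the methods of the study both sexes were kept, and the labels give no sex. Xist, the RNA of the inactive X chromosome, was at 0.051 RPKM or less in all 12 libraries, while the Y-linked Ddx3y was at 2.06 to 3.31 RPKM.

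Paneth cells sit at the base of the small intestinal crypts, beside the stem cells, and discharge granules of antimicrobial proteins into the crypt lumen. Alpha-defensins, named cryptdins in the mouse, are their main granule peptides. They are made as precursors, are held together by disulfide bonds between cysteines, and in the mouse are cut to their active form by the metalloproteinase Mmp7. Wnt signals acting through TCF/LEF factors are known to drive Paneth cell maturation and cryptdin transcription, and the number of Paneth cells is known to rise toward the distal small intestine.

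The 36 Defa rows formed 1 cluster on chromosome 8 of GRCm38, between positions 19210462 and 21735471, with 33 genes on the plus strand and 3 on the minus strand. Defa24, the most abundant, lies at chr8:21734494-21735471 and Defa2 at chr8:21378515-21379495, both on the plus strand, while Lyz1 lies outside the cluster at chr10:117287797-117292868 on the minus strand. Of the 36 rows, 22 were annotated as protein coding and 14 as pseudogenes. Between the 22 coding transcripts identity ran from 64.4% to 100%, with a median of 84.6% over 231 pairs. Joined at 95% identity, 20 of them fell into 5 sequence groups, and Defa29 and Defa26 stood alone. The first group held Defa17, Defa23, Defa24, Defa3, Defa30 and Defa31, the second Defa34, Defa35, Defa36, Defa37 and Defa5, the third Defa2, Defa20, Defa32 and Defa33, the fourth Defa25, Defa27 and Defa28, and the fifth Defa21 and Defa22. The last 90 coding bases before the stop codon, which lie in the part of the precursor that becomes the peptide, are given for members of the 4 abundant groups because the values turn on how far these genes can be told apart. Coordinates are of GRCm38 and capitals mark the cysteine codons read in frame.
Defa24, chr8:21735285-21735374, plus strand: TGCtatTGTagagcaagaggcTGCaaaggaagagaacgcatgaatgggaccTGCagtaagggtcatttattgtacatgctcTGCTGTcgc
Defa31, chr8:21192362-21192451, plus strand: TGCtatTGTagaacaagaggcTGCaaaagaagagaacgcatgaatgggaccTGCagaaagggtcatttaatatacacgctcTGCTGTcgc
Defa23, chr8:21055829-21055918, plus strand: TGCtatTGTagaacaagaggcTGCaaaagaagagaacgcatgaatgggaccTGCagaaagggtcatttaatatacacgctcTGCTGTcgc
Defa5, chr8:21298189-21298278, plus strand: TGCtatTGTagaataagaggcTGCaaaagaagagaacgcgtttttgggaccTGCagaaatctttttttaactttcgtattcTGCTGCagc
Defa34, chr8:21666547-21666636, plus strand: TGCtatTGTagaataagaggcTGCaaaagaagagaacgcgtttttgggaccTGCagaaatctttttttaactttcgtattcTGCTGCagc
Defa2, chr8:21379310-21379399, plus strand: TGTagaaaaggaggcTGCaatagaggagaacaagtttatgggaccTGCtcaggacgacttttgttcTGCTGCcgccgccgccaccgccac
Defa20, chr8:21510051-21510140, plus strand: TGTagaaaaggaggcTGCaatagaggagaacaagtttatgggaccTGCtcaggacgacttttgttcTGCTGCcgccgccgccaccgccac
Defa21, chr8:21026331-21026420, plus strand: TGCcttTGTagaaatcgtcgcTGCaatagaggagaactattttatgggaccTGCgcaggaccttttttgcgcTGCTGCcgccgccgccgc
Defa22, chr8:21163063-21163152, plus strand: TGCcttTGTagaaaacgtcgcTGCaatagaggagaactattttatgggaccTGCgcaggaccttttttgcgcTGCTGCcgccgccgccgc
Defa2 and Defa20 had the same 90 bases, as had Defa5 and Defa34 and as had Defa23 and Defa31, and Defa21 differed from Defa22 at 1 base. Across groups the windows were compared base by base, without alignment. They differed by 22 bases between Defa24 and Defa5, by 38 between Defa24 and Defa21 and by 63 between Defa20 and Defa24. The cysteine codons of Defa20 and Defa21 do not all line up with those of Defa24, so the larger counts do not measure divergence. Over aligned transcripts Defa24 was 83.2% identical to Defa5, 80.6% to Defa21 and 83.5% to Defa20. The windows of Defa2 and Defa20 hold 5 cysteine codons and those of the other 7 genes 6. All windows have the same length, and those of Defa2 and Defa20 hold more bases after the last cysteine codon. A cysteine codon further upstream would be missed, so the 5 is no count for the peptide.

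Identity of this degree bears on every value of a single gene. Of the 22 coding transcripts, 19 shared at least 1 stretch of 100 bases with another member, and Defa24, Defa26 and Defa29 shared none. All such stretches of Defa2 occurred in another member, most often Defa33, and all of Defa31 occurred in Defa23. For Defa20 the share was 99.7%, for Defa5 74.7% and for Defa21 40.4%. How reads that match several members were assigned is not given in the sources used here, so levels of single genes within a sequence group are uncertain, and sums over a group are less exposed to it.

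RefSeq held a promoter for 12 of the defensins and for 8 of the 10 other products. In the 300 bases around each start, CTTTGAT, the core that TCF/LEF factors bind, was found on 1 strand or the other in 12 of 12 defensin promoters and in 3.73% of all 32851 promoters. TATAAA was found in 11 of the 12 and in 13.6% of all. Each motif was found in 2 of the 10 promoters held for the other products. For CTTTGAT these were 2 overlapping promoters of Mmp7 that hold the same match. The defensin promoters are copies of one another and are not independent, and a match is a description of letters rather than a site. The 100 bases before the start are given for 1 gene of each of 3 groups and for Lyz1, with matches to either motif in capitals on either strand (GRCm38.p6).
Defa20, chr8:21509158-21509257, plus strand: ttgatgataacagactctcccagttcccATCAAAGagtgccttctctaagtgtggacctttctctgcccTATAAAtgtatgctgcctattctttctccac
Defa21, chr8:21025445-21025544, plus strand: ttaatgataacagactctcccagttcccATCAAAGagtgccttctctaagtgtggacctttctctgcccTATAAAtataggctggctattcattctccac
Defa31, chr8:21191473-21191572, plus strand: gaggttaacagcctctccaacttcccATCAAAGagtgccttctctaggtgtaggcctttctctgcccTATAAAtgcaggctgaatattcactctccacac
Lyz1, chr10:117292869-117292968, minus strand: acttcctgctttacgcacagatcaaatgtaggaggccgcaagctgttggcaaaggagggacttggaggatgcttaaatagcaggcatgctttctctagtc
In the 3 defensin promoters the TCF/LEF core lay some way before the TATA box, and neither motif was matched in the bases given for Lyz1.

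The defensins were among the most abundant transcripts of the tissue. Of the 10 genes of highest mean RPKM (reads scaled for transcript length and for library depth, a unit inferred rather than named in the files), 7 were alpha-defensins, and so were 15 of the top 50. Together the 36 rows took between 9.89% and 29.2% of all RPKM of a library, or 1.88% to 6.93% of its reads, which was about 314000 to 1550000 reads. Defa24, Defa2, Defa20 and Defa21 alone held 46.5% to 53.2% of the defensin RPKM, the 12 highest genes held 89.2% to 92.7%, and the 14 pseudogenes held 0.262% to 0.478%. Depth therefore did not limit the abundant members. Recovered from the spacing of low values, it was about 15300000 to 39000000 reads per library.

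The ileal label was checked against marker genes. The bile acid binding protein Fabp6 was at 2415 to 9713 RPKM and the bile acid transporter Slc10a2 at 64.4 to 123.2 RPKM, and the summed level of 9 pancreatic acinar genes was at most 30.2 RPKM. In 4 libraries, 1 of each group (the second replicates of NF, HF and HF_Sugar and the first of NF_Sugar), the first principal component of the other genes, with 40.4% of the variance, set the library apart from the remaining 8, and 73.3% to 73.9% of reads lay in genes, against 77.1% to 81.4%. 0 members passed in any comparison with or without these 4 libraries.

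Library NF replicate 3 held 5 values written with more digits than those of the other members. They were 12920.41 RPKM for Defa2, 1989.582 for Defa23, 1386.208 for Defa29, 1969.627 for Defa31 and 1421.003 for Defa5. Each carried 7 significant digits where all other member values carried at most 6. Up to 20000 reads the recovered depth resolves whole reads. Defa23, Defa29, Defa31 and Defa5 came to 19743.38, 17002.39, 17928.47 and 12900.33 reads, while all 263 other defensin values checked in this range were whole within 0.1. Defa2, at about 132894 reads, was above the range. Across all genes and libraries, 17 of 364129 values above 0 had 7 digits, and the other 12 all lay in HF_Sugar libraries, in 10 genes that are no members. The deposited per-library values were the same as those of the series table in 12 of 12 libraries. These 5 values are called irregular here.

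The irregular values were high for their library. After centring each library on the mean log2 level of the 25 regular defensins with a mean of at least 5 RPKM, they stood 0.87 to 1.40 log2 units above the mean of the other 11 libraries. The 12 regular genes with a mean of at least 1000 RPKM stood at -0.81 to -0.05, and the 13 less abundant ones at -0.05 to 0.98. The abundant regular genes were thus low and the 5 irregular ones high within 1 library. Close relatives showed the same. The ratio of Defa2 to Defa20, whose printed coding bases are identical, was 4.96 in NF replicate 3 and 0.917 to 1.51 in the other 11 libraries. For Defa5 to Defa34 it was 3.32 against 1.05 to 1.21, and for Defa31 to Defa3, also of 1 sequence group, 2.04 against 0.682 to 1.07. Over all pairs within a sequence group, the ratio of an irregular to a regular gene was above the range of the other 11 libraries in 14 of 15 pairs. These 14 stood at 1.8 to 4.67 times the median of those libraries. Defa5 to Defa35, at 1.43 times, was inside the range. Of the 19 pairs of 2 regular genes, 13 were inside that range, among them Defa21 to Defa22 at 1.01 and Defa36 to Defa37 at 0.955, and 6 were outside. Of these 6, 3 held Defa35, which was high beside its group in NF replicate 3 with a regular value, so that Defa34 to Defa35 was 1.82 against 2.04 to 5.56. The other 3 were at 0.782 to 0.89 times the median.

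**Figure D1:**
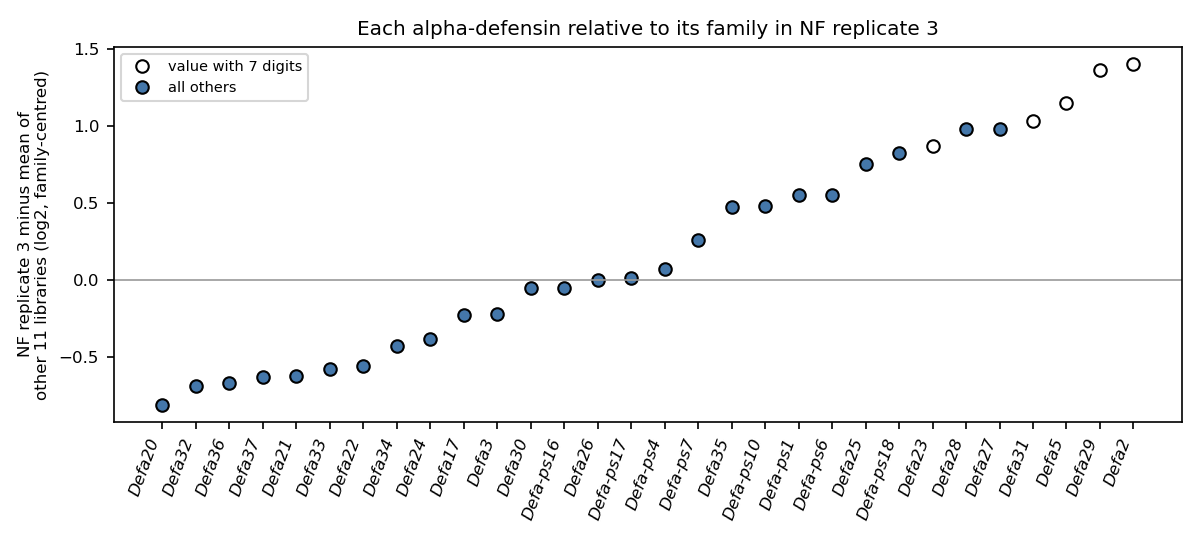
Level of each of 30 alpha-defensins in NF replicate 3 minus its mean in the other 11 libraries, in log2 units after centring each library on the mean of its 25 regular defensins (vertical axis), by gene in rising order (horizontal axis). Open circles are the 5 values with 7 digits, which lie between 0.87 and 1.40.

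The levels of the 12 most abundant defensins are given library by library, replicates 1, 2 and 3 of each group in order. The first sequence group, led by Defa24, held 6 of them.
Defa24 was at 18184, 13173 and 5788 RPKM in NF, 10201, 34247 and 9980 in NF_Sugar, 19310, 7909 and 16654 in HF, and 9203, 11934 and 16807 in HF_Sugar.
Defa30 stood at 5215, 3976 and 2301 RPKM in NF, 3207, 10164 and 3111 in NF_Sugar, 5702, 2529 and 5034 in HF, and 3598, 3710 and 5871 in HF_Sugar.
Defa17 was at 4036, 3338 and 1496 RPKM in NF, 2582, 7648 and 2087 in NF_Sugar, 4251, 1544 and 3927 in HF, and 2739, 3148 and 3426 in HF_Sugar.
NF_Sugar replicate 2 was the highest library for each of these 3 genes and NF replicate 3 the lowest, so that both extremes came from mice on the normal-fat diet.
Defa3 stood at 2239, 1939 and 966 RPKM in NF, 1805, 4920 and 1496 in NF_Sugar, 2948, 1147 and 2633 in HF, and 1391, 1815 and 2433 in HF_Sugar.
Defa23 was at 2565, 1887 and 1990 RPKM in NF, 1550, 5602 and 1416 in NF_Sugar, 2745, 865 and 2818 in HF, and 1291, 1827 and 2365 in HF_Sugar.
Defa31 stood at 2398, 1777 and 1970 RPKM in NF, 1343, 4949 and 1234 in NF_Sugar, 2444, 782 and 2257 in HF, and 1253, 1728 and 1800 in HF_Sugar.
For Defa23 and Defa31 NF replicate 3, with its irregular value, was not the lowest library, and HF replicate 2 was. For Defa3 it was NF replicate 3 again.
The third group, Defa2, Defa20, Defa32 and Defa33, held 4 of the 12.
Defa20 was at 9510, 11640 and 2607 RPKM in NF, 10211, 14271 and 4406 in NF_Sugar, 8430, 5974 and 8755 in HF, and 5589, 9810 and 9129 in HF_Sugar.
Defa33 stood at 7878, 8522 and 2577 RPKM in NF, 8991, 12375 and 4121 in NF_Sugar, 7416, 5393 and 8028 in HF, and 4336, 7067 and 8072 in HF_Sugar.
Defa32 was at 7137, 9189 and 2253 RPKM in NF, 8869, 10651 and 3533 in NF_Sugar, 6657, 5338 and 6887 in HF, and 4267, 7345 and 7788 in HF_Sugar.
All 3 were lowest in NF replicate 3 and highest in NF_Sugar replicate 2, and the HF and HF_Sugar values lay inside the range of the NF values.
Defa2 stood at 10100, 10677 and 12920 RPKM in NF, 10132, 15918 and 4960 in NF_Sugar, 9156, 9032 and 9693 in HF, and 5635, 9355 and 9362 in HF_Sugar.
Its irregular value made NF replicate 3 the second highest library, and the 3 NF values lay above all HF and HF_Sugar values.
The last pair, Defa21 and Defa22, kept a near-constant ratio.
Defa21 was at 9579, 8369 and 2701 RPKM in NF, 5469, 16457 and 4601 in NF_Sugar, 9386, 4070 and 8931 in HF, and 6988, 6415 and 10643 in HF_Sugar.
Defa22 stood at 9584, 7749 and 2674 RPKM in NF, 5180, 15344 and 4490 in NF_Sugar, 8867, 3954 and 8544 in HF, and 6360, 6259 and 9786 in HF_Sugar.
Both were lowest in NF replicate 3 and highest in NF_Sugar replicate 2. All 25 regular defensins at 5 RPKM or more were highest in NF_Sugar replicate 2, and 13 of them were lowest in NF replicate 3 and 8 in HF replicate 2.

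The other 10 coding defensins had means of 27.9 to 1586 RPKM and differed 3.14-fold to 5.6-fold between their highest and lowest libraries. Defa29 and Defa5, each with an irregular value, belong here.
Defa29 was at 1152, 1325 and 1386 RPKM in NF, 933, 1887 and 640 in NF_Sugar, 988, 601 and 1006 in HF, and 817, 1156 and 1045 in HF_Sugar.
Defa5 stood at 1258, 1696 and 1421 RPKM in NF, 1216, 2339 and 585 in NF_Sugar, 1017, 780 and 1056 in HF, and 1076, 1349 and 1467 in HF_Sugar.
In both, the HF values were below all NF values. Of the 14 pseudogenes, 9 passed the filter of 0.5 RPKM in at least 3 libraries, with means of 1.12 to 67.5 RPKM, and the other 5 reached at most 0.526 RPKM in any library. Counted with the others, 31 of the 36 defensin rows and all 10 other products passed, or 41 of 46 members.

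The other products of the granules covered a wider range of levels. Lyz1, the Paneth cell lysozyme, and Itln1, an intelectin that binds microbial sugars, were the most abundant.
Lyz1 was at 2512, 4870 and 1058 RPKM in NF, 4004, 3525 and 1400 in NF_Sugar, 3156, 2056 and 3323 in HF, and 1732, 3064 and 4251 in HF_Sugar.
Itln1 stood at 1264, 1929 and 471 RPKM in NF, 1596, 2309 and 806 in NF_Sugar, 1379, 989 and 1316 in HF, and 694, 1562 and 1453 in HF_Sugar.
Ang4 was at 382, 655 and 109 RPKM in NF, 434, 1252 and 195 in NF_Sugar, 412, 231 and 477 in HF, and 196, 616 and 675 in HF_Sugar.
Ang4 is a ribonuclease of the angiogenin family with antimicrobial activity. All 3 genes were lowest in NF replicate 3, and none of the groups was separate from another.
Mmp7 was at 77.1, 104 and 37.7 RPKM in NF, 68, 235 and 73.8 in NF_Sugar, 80.8, 40.3 and 85.2 in HF, and 65.5, 95.9 and 95.3 in HF_Sugar.
Mptx2 stood at 101, 297 and 44.3 RPKM in NF, 180, 618 and 109 in NF_Sugar, 52.7, 17.9 and 126 in HF, and 93.1, 259 and 139 in HF_Sugar.
Mptx1 was at 3.89, 4 and 2.38 RPKM in NF, 4.47, 18.4 and 2.13 in NF_Sugar, 4.08, 0.752 and 4.71 in HF, and 2.33, 4.66 and 6.38 in HF_Sugar.
Mmp7 is the protease that activates the defensin precursors, and Mptx1 and Mptx2 are pentraxins. The pentraxins ranged 24.5-fold and 34.4-fold over the 12 libraries, more than Mmp7 at 6.24-fold, and their highest values were in NF_Sugar replicate 2.
Clps was at 163, 133 and 52.6 RPKM in NF, 87.1, 366 and 70.9 in NF_Sugar, 229, 63.3 and 160 in HF, and 107, 116 and 158 in HF_Sugar.
Pla2g2a stood at 55.7, 60.8 and 17.3 RPKM in NF, 44.7, 68.5 and 28 in NF_Sugar, 21.4, 23.7 and 36.7 in HF, and 23.8, 50.2 and 32.2 in HF_Sugar.
Pla2g4c was at 0.527, 3.46 and 1.82 RPKM in NF, 1.03, 44.2 and 1.63 in NF_Sugar, 0.983, 0.704 and 12.3 in HF, and 1.56, 2.2 and 55.6 in HF_Sugar.
Clps encodes colipase, a cofactor of pancreatic lipase, and Pla2g2a and Pla2g4c encode phospholipases. C57BL/6 mice are known to carry a disrupted Pla2g2a, annotated as a polymorphic pseudogene, and its RNA was nevertheless counted in all 12 libraries. Pla2g4c was low in most libraries and high in 3 of them, 1 each of NF_Sugar, HF and HF_Sugar.
Habp2 stood at 6.7, 8.1 and 2.47 RPKM in NF, 6.96, 12.3 and 4.26 in NF_Sugar, 6.11, 4.18 and 8.23 in HF, and 4.43, 7.26 and 10 in HF_Sugar.
Habp2, a serine protease that binds hyaluronan, was lowest in NF replicate 3. Of the 9 other products at 5 RPKM or more, 7 were highest in NF_Sugar replicate 2 and 7 were lowest in NF replicate 3, the same 2 libraries that bounded the defensins.

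**Figure D2:**
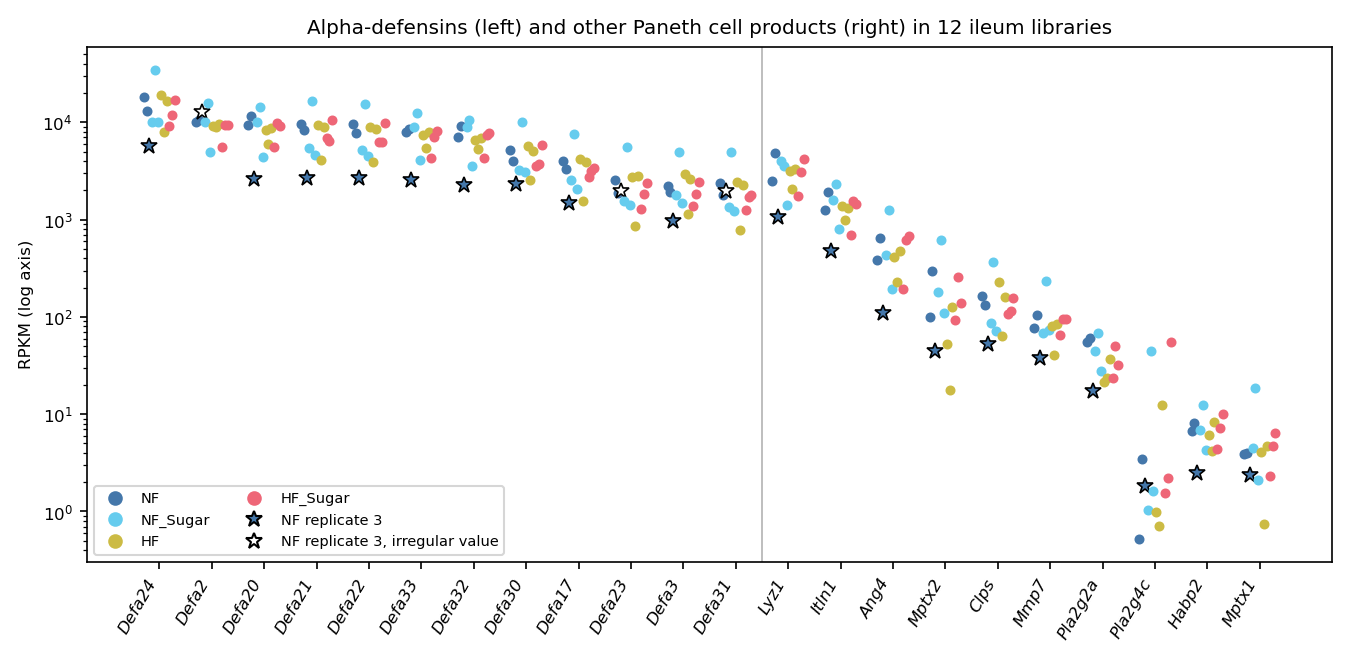
RPKM (vertical axis, log scale) of the 12 most abundant alpha-defensins and the 10 other Paneth cell products (horizontal axis) in each of 12 libraries, 1 point per mouse, coloured by diet group. Stars mark NF replicate 3, open where its value is irregular, and it is the lowest library for 9 of the 12 defensins shown but not for Defa2, Defa23 and Defa31.

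Levels of these genes varied strongly between mice on the same diet. Among the 7098 genes with a mean of at least 5 RPKM the median standard deviation within groups was 0.25 log2 units. The 25 regular defensins had 0.64 to 0.84, which placed them above 88% to 93.6% of those genes. The 5 irregular ones had 0.47 to 0.77, and the 9 other products had 0.63 to 1.96, the highest being Pla2g4c. In whole tissue a smaller number of Paneth cells and less RNA in each of them cannot be told apart.

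The comparison of HF_Sugar with NF asked what fat and sugar together did to the ileum. With limma on scaled log2(RPKM + 1) values, 0 of 41 members passed an adjusted p of 0.05, beside 0% of all 17662 genes tested. At an unadjusted p under 0.05 there were 0 members and 792 genes. The 31 defensins had a median difference of 0.04 log2 units, from -0.56 to 0.55, and the 10 other products of 0.23, from -0.26 to 1.48, while the median of all genes was -0.01. Defa24 differed by 0.08 ± 0.59 (SE), with a 95% interval of -1.24 to 1.39 (limma adjusted p = 0.998), and Lyz1 by 0.20 ± 0.62, with an interval of -1.16 to 1.57 (limma adjusted p = 0.991). These intervals hold changes of more than 2-fold either way, so the data do not show that levels were alike. The lowest adjusted p of a member was 0.96.

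The irregular and the regular genes differed in direction. All 5 irregular defensins were lower in HF_Sugar, with a median of -0.43, and the 26 regular ones had a median of 0.10, with 19 higher and 7 lower. Defa2 had the lowest difference of the defensins, at -0.56 ± 0.37 (limma adjusted p = 0.96), whereas Defa20 stood at 0.20 ± 0.62 (limma adjusted p = 0.991). Defa2 was also the 1 member whose HF_Sugar values (5635 to 9362 RPKM) were all below its NF values (10100 RPKM and up). Over all genes tested 2.97% were lower in this way and 7.21% higher, and 0 members were higher. The lowest NF value of Defa2 was that of replicate 1, while Defa20 had 2607 RPKM in NF replicate 3. Leaving out a value can never undo a separation, so doing so does not show whether the separation rests on the irregular value. With that value left out the difference of Defa2 was -0.54 ± 0.44. With NF replicate 3 left out for every gene, the median of the defensins became -0.33 and that of the other products -0.35, and 17 of the 24 members followed in detail changed sign, Defa20 to -0.55 and Lyz1 to -0.45. Without HF_Sugar replicate 3 it was 7 of the 24, and without HF_Sugar replicate 2, NF replicate 1 or NF replicate 2 it was 2, 1 and 1.

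**Figure D3:**
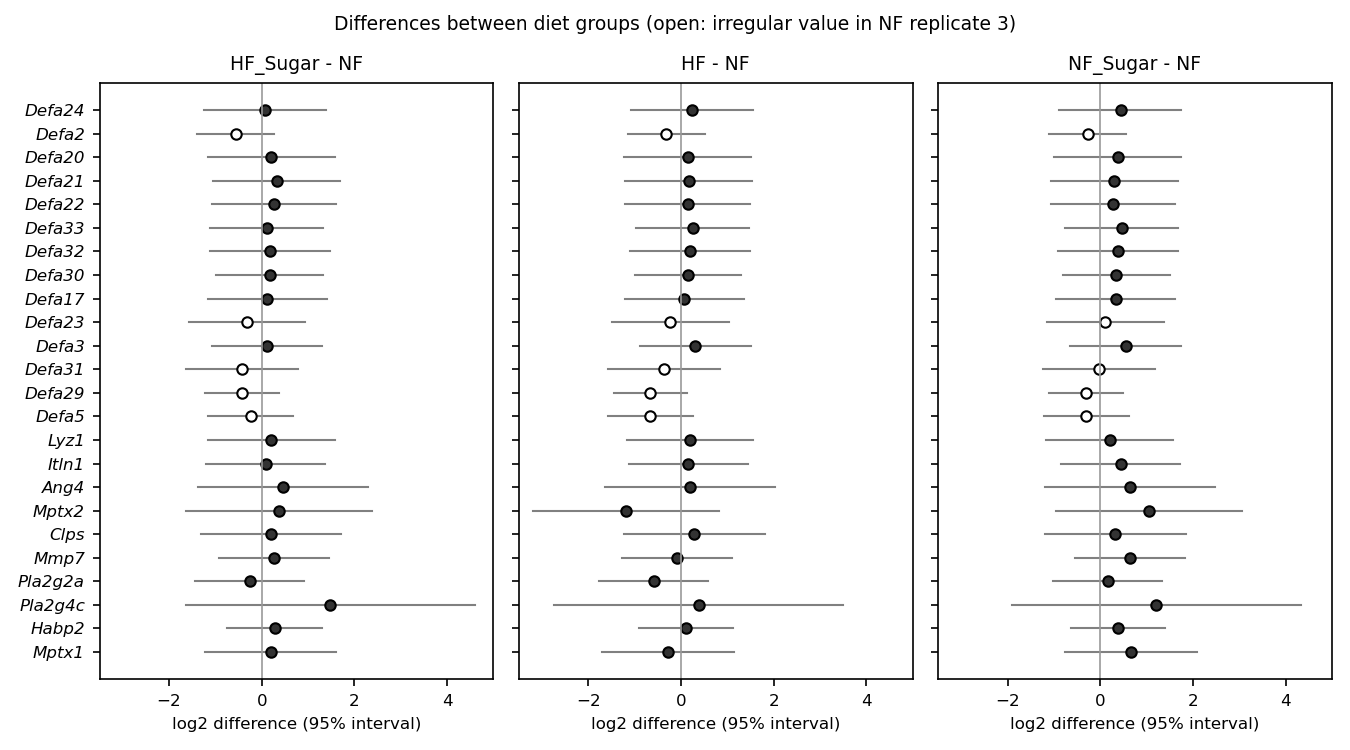
Difference of each of 24 members from NF in log2 units with its 95% interval (horizontal axis, limma on scaled log2(RPKM + 1), 3 mice per group), for HF_Sugar, HF and NF_Sugar. Open circles are the 5 genes with an irregular value in NF replicate 3, which lie at -0.56 to -0.23 for HF_Sugar, and all intervals hold 0.

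HF was set against NF to show the effect of fat alone. Again 0 of 41 members passed, beside 0% of all genes, and 0 members and 662 genes had an unadjusted p under 0.05. The defensins had a median of 0.15 and the other products of 0.14 log2 units, and the median of all genes was -0.01. The 5 irregular genes were all lower, with a median of -0.37, and 24 of the 26 regular ones were higher, with a median of 0.16. Defa5 differed by -0.67 ± 0.41, Defa29 by -0.66 ± 0.36 and Defa2 by -0.32 ± 0.37 (limma adjusted p = 1 for each). These 3 were the members whose HF values all lay below NF, where 2.97% of all genes were lower and 5.37% higher without overlap, and 0 members were higher. In each the lowest NF value was that of replicate 1. Leaving out the irregular value of replicate 3 can never undo a separation, so it does not show whether the separation rests on that value. Defa34 and Defa20, regular relatives of Defa5 and Defa2, overlapped between HF and NF, and NF replicate 3 was their lowest library, at 428 and 2607 RPKM. With that library left out, the HF values of both lay below the remaining NF values. Defa34 was at up to 953 RPKM in HF against 1201 and up in NF, and Defa20 at up to 8755 against 9510 and up. Without NF replicate 3 the medians of the defensins and of the other products were -0.30 and -0.51. Mptx2 had the lowest difference among the other products, at -1.19 ± 0.90 (limma adjusted p = 1).

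For NF_Sugar against NF 0 of 41 members passed, beside 0% of all genes, with 0 members and 329 genes at an unadjusted p under 0.05. The medians were 0.34 for the defensins and 0.54 for the other products, against 0 for all genes, and all 10 other products had a positive difference. No member was separate in either direction, where 2.64% of all genes were lower and 3.22% higher. The NF_Sugar group held both NF_Sugar replicate 2, the highest library, and NF_Sugar replicate 3, in which defensins took 11.4% of RPKM against 29.2%. Without NF replicate 3 these medians were -0.12 and -0.14. With each library left out in turn they ran from -0.14 to 0.72 and from -0.14 to 0.9. NF replicate 3 was thus not the only library whose removal turned the median of the defensins negative.

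Pooling the groups by factor gave the same count. For fat (HF and HF_Sugar against NF and NF_Sugar) 0 members and 0% of all genes passed, with 0 members and 466 genes at an unadjusted p under 0.05, and the medians were -0.05 for both lists. For sugar (NF_Sugar and HF_Sugar against NF and HF) 0 members and 0% of all genes passed, with 0 members and 656 genes at an unadjusted p under 0.05, and the medians were 0.10 and 0.37. Mptx2 came nearest, at 1.30 ± 0.64 for sugar (limma adjusted p = 0.999). For the interaction of fat and sugar 0 members and 0% of all genes passed, with 0 members and 449 genes at an unadjusted p under 0.05, and the medians were -0.38 and -0.20. All 6 comparisons use NF replicate 3, and the first 3 share all 3 NF libraries as their control.

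The balance between sequence groups differed between libraries within every diet. The summed RPKM of Defa20, Defa32 and Defa33 was 1.18 to 1.58 times that of Defa17, Defa24, Defa3 and Defa30 in the 4 libraries set apart by the other genes, and 0.655 to 0.876 times in the remaining 8. Only regular genes enter this ratio. Defa20 alone reached 0.755 to 1 times Defa24 in those 4 libraries and 0.417 to 0.607 times in the 8. Relative to the family, Defa2, Defa20, Defa32 and Defa33 were each higher in all 4 libraries than in the 7 others besides NF replicate 3, as was Defa26, and Defa30, Defa27 and Defa28 were each lower. The total did not separate the libraries, with defensins at 13.4% to 19.7% of RPKM in the 4 and 9.89% to 29.2% in the 8. The share of reads in genes was lower in the 4 libraries, as given above, and Fabp6 was at 2415 to 2677 RPKM in them and at 2926 to 9713 RPKM in the 8. The other 4 ileal bile acid genes overlapped between the 4 libraries and the 8, with Slc10a2 at 80.7 to 123.2 RPKM against 64.4 to 122.3. The part of either in the balance was not tested. Each diet holds 1 of the 4 libraries, so the balance does not follow diet, and the ratio was examined after the values were seen.

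**Figure D4:**
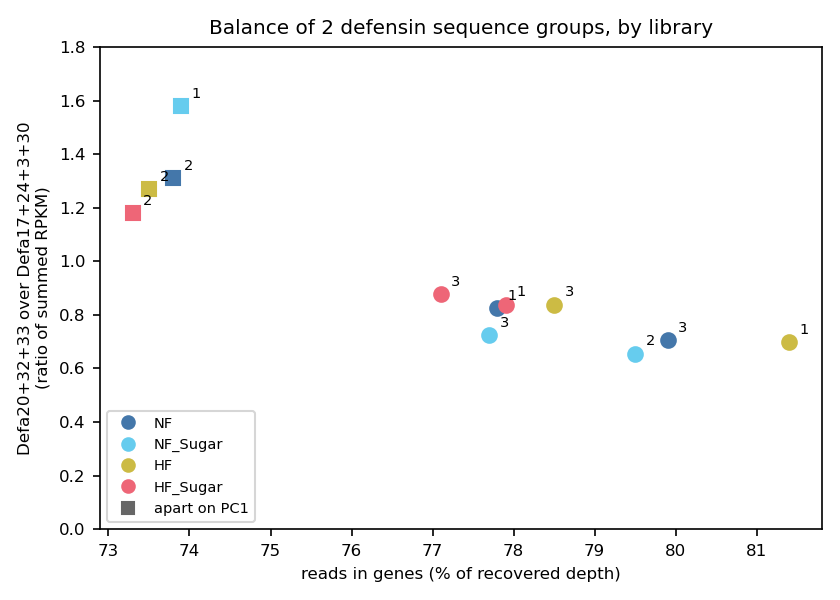
Ratio of the summed RPKM of Defa20, Defa32 and Defa33 to that of Defa17, Defa24, Defa3 and Defa30 (vertical axis, from 0) against the percentage of recovered reads that lie in genes (horizontal axis), 1 point per library, coloured by diet and numbered by replicate. Squares are the 4 libraries apart on the first principal component, at 1.18 to 1.58, and the other 8 lie at 0.655 to 0.876.

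Within the span of the cluster 52 further genes were in the table, and 7 had a mean of at least 5 RPKM. Those of highest mean were Gm7861 (2253 RPKM), Gm7849 (1979), Gm14851 (942) and AY761184 (883). RefSeq names Gm7861, Gm7849 and Gm14851 as Defa43, Defa42 and Defa38, and Gm15293 and Gm15292 as Defa41 and Defa40, so 5 alpha-defensins of this locus stand outside the rule by name. Gm7861 had 868 RPKM in NF replicate 3 and 1335 to 3802 elsewhere, and Gm7849 had 791 and 1215 to 3382. Both were thus lowest in the library where the regular abundant members were lowest.

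Genes of the Paneth cell lineage and its surroundings were fixed in lists beside the members, and 0 of them passed in any of the 6 comparisons. The 10 lineage genes, among them Atoh1, which commits cells to the secretory fate, Spdef, a factor of secretory cell maturation, and Sox9 and Fzd5, which Paneth cells need, had a summed level of 51.5 to 56.4 RPKM in NF, 58.6 to 64.2 in HF, 53.9 to 68.6 in NF_Sugar and 57.3 to 72.7 in HF_Sugar. The NF sums lay below those of HF and of HF_Sugar, a sum that was given no test, and 8 of the 10 single genes had a positive difference in HF_Sugar, with a median of 0.13 log2 units. Atoh1 differed by 0.42, Spdef by 0.13 and Fzd5 by 0.12, while Sox9 and Tcf7l2 were lower, at -0.22 and -0.03. Of all single genes tested, 5.37% were higher than NF without overlap in HF and 7.21% in HF_Sugar. NF replicate 3 was the lowest library here too, at 51.5, but stood close to NF replicate 1 at 53.6, while the defensin sums of these 2 libraries were 45137 and 95654 RPKM. The 7 niche signals, led by Cd24a and the Notch ligands Dll4 and Dll1, summed to 34.9 to 60.6 RPKM in NF and 39.4 to 61.1 in HF_Sugar, and the 11 genes of secretion and sensing, led by the stress response factor Xbp1, to 102.1 to 120.2 and 92.5 to 110.3 RPKM. The 6 other granule products summed to 459.9 RPKM in NF replicate 3 and 1180 and 1419 RPKM in NF replicates 1 and 2.

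Markers of other cells were summed in each library, and the values are given for NF replicate 3, the lowest library of 13 of the 25 regular defensins, and NF_Sugar replicate 2, the highest of all 25. The 7 goblet cell genes summed to 5212 to 7764 RPKM over all libraries, and to 7354 in NF replicate 3, inside that range. The 8 enterocyte genes summed to 2956 RPKM in NF_Sugar replicate 2, the lowest of all, and to 6199 in NF replicate 3. The 7 stem cell genes of the crypt, led by Olfm4, were at 69.5 RPKM in NF replicate 3 and 139.8 in NF_Sugar replicate 2. Their sum was lowest in HF_Sugar replicate 1 at 68.4 and highest in HF_Sugar replicate 3 at 204.9. The 6 smooth muscle genes summed to 1127.2 RPKM in NF_Sugar replicate 2, the highest of all, and to 716.4 in NF replicate 3. The 5 ileal bile acid genes summed to 10871 RPKM in NF replicate 3, of which Fabp6 made 9713, and to 3568 in NF_Sugar replicate 2. Single genes of this list differed, and the bile acid exporter subunit Slc51a was highest in NF replicate 1 and Slc10a2 in HF_Sugar replicate 2. Their part in the levels of the members was not tested. The antimicrobial lectins Reg3b and Reg3g, made by enterocytes as well, were highest in NF_Sugar replicate 2 at 9912 and 7338 RPKM, and NF replicate 3 had 2318 and 1097. Both were lowest in HF replicate 1, at 628.3 and 263.7, while HF_Sugar replicate 1 had 7866.9 and 4146.4.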

How the data were processed

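Total RNA of each ileum (integrity number above 8 by the labels) was made into Ion Total RNA-Seq Kit v2 libraries, and by the study's methods the reads were mapped to mm10 with STAR in Partek Flow. The authors deposited 1 value per gene and library, taken here as RPKM, in a series table and in 12 files of single libraries with the same values. No file header names this unit. It was inferred from the spacing of low values, which depends on the gene. The members and gene lists were chosen with earlier results of these data known. From 44231 rows 26 with a bare number in place of a name were left out, and 40607 of the 44205 remaining symbols matched GENCODE M21 (GRCm38), which gave the coordinates and coding bases.

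RPKM was scaled by an unweighted trimmed mean of log ratios (leaving out 30% of ratios and 5% of means on either side). The fit by limma (version 3.58.1 in R 4.3.3, trend on) took log2(RPKM + 1) over 12 libraries and 4 groups, for genes that reached 0.5 RPKM in at least 3 of the libraries. Two-sided p-values were adjusted by Benjamini-Hochberg over 17662 genes, with a threshold of 0.05. Differences are on the log2(RPKM + 1) scale, which understates changes of low genes. Whole tissue of separate mice gave each library. Low RPKM values come in steps of 1 read, which gave each library's depth. Named in full were the 12 defensins of highest mean RPKM, the 10 other products and every irregular member. From each companion list and from the neighbours, genes were named from the 4 of highest mean. The fit was tested on simulated data in which genes varied independently, with the same added spread for all. It was not tested at the spread of the members.

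Same-numbered libraries of HF_Sugar and NF had correlations of 0.19, 0.51 and 0.21 between their deviations from the group means, all over 0.1, and so had HF_Sugar and HF (0.49, 0.56 and 0.13). The other 4 pairs of groups did not. Alternatives were other scalings, a pseudocount of 0.1, no filter, a mean of at least 5 RPKM, irregular values set to missing, a replicate block, the library cluster as a term or left out, each library left out, the compared groups alone, and a 2-fold change with an adjusted p under 0.01.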

Additional observations from a re-analysis of the deposited data

How the results depend on the processing

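In 23 other settings the number of members that passed was 0 in 135 of 135 counts. Of 258 medians of the 2 lists, 257 moved by less than the spread between replicates. That spread was 0.613 log2 units for the defensins and 0.861 for the other products. It exceeds every median of the main fit, so a median could change sign and still be counted among the 257. Without NF replicate 3 the defensin median for HF_Sugar against NF went from 0.04 to -0.33. The median of the other products for the interaction became -1.23 without the 4 libraries apart. Of 527 values of single members for HF_Sugar against NF, 28 changed sign, all with 1 library left out, in 18 of the 24 members, and 17 of the 28 came from leaving out NF replicate 3. The other 11 came from HF_Sugar replicate 3 (7), HF_Sugar replicate 2 (2), NF replicate 1 (1) and NF replicate 2 (1). With each library left out in turn the log2 difference ran from -0.91 to 0.1 for Pla2g2a, from -0.48 to 0.46 for Defa24, from -0.55 to 0.66 for Defa20, from -0.34 to 0.69 for Defa21, from -0.39 to 0.65 for Defa22, from -0.53 to 0.47 for Defa33. It ran from -0.52 to 0.63 for Defa32, from -0.24 to 0.47 for Defa30, from -0.39 to 0.44 for Defa17, from -0.33 to 0.39 for Defa3, from -0.45 to 0.78 for Lyz1, from -0.35 to 1.07 for Ang4. It ran from -0.23 to 0.62 for Mmp7, from -0.57 to 0.58 for Itln1, from -0.05 to 0.5 for Mptx1, from -0.36 to 1.14 for Mptx2, from -0.37 to 0.55 for Clps, from -0.21 to 0.59 for Habp2. The replicate number paired HF_Sugar with NF by the correlation rule, and with the replicate block the count was 0. Each replicate number occurs once in every group, so the medians had to stay at 0.04 for the defensins and 0.23 for the other products. The library cluster as a term, with 1 of its 4 libraries in each group, leaves differences unmoved in the same way. Both terms can change only errors and p-values. No other call was changed by the block. Depth did not limit the abundant members, and the 5 pseudogenes at 0.526 RPKM or less could not be tested.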

Other observations

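Clps is also a gene of the exocrine pancreas. The 9 pancreatic acinar genes summed to 30.2 RPKM in HF replicate 2 and to 0.0245 to 2.92 RPKM in the other 11 libraries, while Clps had 63.3 RPKM in HF replicate 2, less than in 10 of the others. Of the 7 neutrophil granule genes listed 6 were in the table, and their summed level was at most 1.77 RPKM in every library, while the 6 macrophage genes, Lyz2 among them, summed to 99 to 255.3 RPKM. The macrophage lysozyme Lyz2 averaged 108 RPKM and the Paneth lysozyme Lyz1 2913 RPKM.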
